A study of Homo sapiens with 6 samples.

Results

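The 7 genes described here, CYCS, APAF1, CASP9, CASP2, CASP6, DIABLO and HTRA2, encode the parts of the mitochondrial route to cell death that run from the release of cytochrome c to the cutting of cell proteins. They were chosen by name, as apoptosome and executioner genes, out of 60708 genes counted in each library, and all 7 had enough reads to be tested. The data are Ago-RIP-seq of MDA-MB-231, an established human triple-negative breast cancer cell line, collected to find transcripts bound by the silencing complex when miR-99b-5p is in excess. Cells received 25 nM of a miR-99b-5p mimic or of a scrambled control oligonucleotide and were harvested 18 hours later. An antibody to AGO2 brought down the protein with its attached RNA (AGO2-IP), and what stayed in the lysate was kept as the flow-through (FT). The 6 libraries were 2 mimic AGO2-IP and 2 mimic FT libraries, from biological replicates 1 and 2, and 1 control AGO2-IP and 1 control FT library. The fraction of each control library comes from its sample title, whereas the study's own sample list calls them control replicates 1 and 2 and names no fraction. The paper's methods differ from the titles: they give 2 biological replicates of AGO2-IP for mimic and for control cells, and name no flow-through library. The titles were followed, and every ratio against or between the control libraries rests on them. All 6 come from transfected cells of a single line, so the control is a transfected control, and the IgG pull-downs named in the study's methods were not analysed here.

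In healthy cells cytochrome c, the product of CYCS, carries electrons in the respiratory chain. Once it leaks from damaged mitochondria it binds APAF1, which assembles into the apoptosome, a wheel-shaped platform that activates the initiator caspase CASP9. CASP9 then sets off the executioner caspases, the class to which CASP6 belongs. CASP2 is an initiator caspase of a separate platform, the PIDDosome. DIABLO and HTRA2 are released from mitochondria with cytochrome c and relieve the block that inhibitor of apoptosis proteins place on caspases. Thus of the 3 caspases in the group CASP6 alone is an effector caspase, whereas CASP9 and CASP2 act upstream.

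A miRNA guides AGO2 to transcripts mainly through its seed, bases 2 to 8 from the 5′ end. The mature miR-99b-5p and its relatives with the same seed are printed below 5′ to 3′ with the seed in capitals (RefSeq, GRCh38.p14), because any match in the 7 genes has to be read against it. miR-99b-5p lies on the plus strand at chr19:51692618-51692639, miR-99a-5p on the plus strand at chr21:16539101-16539122 and miR-100-5p on the minus strand at chr11:122152275-122152296.
miR-99b-5p: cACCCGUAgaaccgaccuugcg
miR-99a-5p: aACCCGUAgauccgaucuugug
miR-100-5p: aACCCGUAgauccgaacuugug

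The shortest seed match searched was the 6-base ACGGGT on the transcript strand, together with the longer forms that extend it by a paired base before it, an A after it, or both. None of the canonical transcripts of the 7 genes held ACGGGT anywhere along its length, while 2970 of 19942 protein-coding genes (14.9%) held it in theirs. Among all annotated transcripts the 6-base match was found in CYCS, in 2 of 4 transcripts, and in HTRA2, in 2 of 17. No transcript of CASP2, CASP6, CASP9, APAF1 or DIABLO contained it. Of all protein-coding genes, 21.6% held it in some annotated transcript. The CYCS match lies at chr7:25124719-25124724 on the minus strand, in the 5′ UTR of ENST00000409764.5 and ENST00000413447.1 and outside the exons of the canonical transcript. The HTRA2 match lies at chr2:74531724-74531729 on the plus strand, in ENST00000482331.1 and ENST00000696731.1, which have no annotated coding part, and again outside the canonical exons. Both are shown with the bases around them in GRCh38, the match in capitals. Neither extends to a longer form.
CYCS: aaccgacctggACGGGTgacctcgtggt
HTRA2: cttatggggaaACGGGTtcctttaatgt
Pairing outside the seed was not searched, and the absence of these letters says nothing of other routes by which AGO2 could hold a transcript.

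How cleanly each gene could be counted differed, since the deposited counts leave out read pairs that fall on exons of more than 1 gene. CYCS (ENSG00000172115, chr7:25118656-25125260, minus strand) and CASP2 (ENSG00000106144, chr7:143288215-143307696, plus strand) shared no exon base with another annotated gene. CASP9 (ENSG00000132906, chr1:15490832-15526534, minus strand) shared 1.92% of its exon bases and none of its canonical transcript. CASP6 (ENSG00000138794, chr4:109688622-109703583, minus strand) shared 5.63% of its canonical transcript with MCUB on the opposite strand. APAF1 (ENSG00000120868, chr12:98645290-98735433, plus strand) shared 10.4% of its canonical transcript with ANKS1B on the opposite strand. HTRA2 (ENSG00000115317, chr2:74529596-74533350, plus strand) shared 33.4% of its canonical transcript with AUP1 and LOXL3 on the opposite strand. The whole canonical transcript of DIABLO (ENSG00000184047, chr12:122207663-122227456, minus strand) lies within exons of other annotated genes, ENSG00000284934 and ENSG00000256861 on its own strand and B3GNT4 on the other. DIABLO counts therefore come from the exon bases that no other gene claims, and its level is a lower bound. The same-strand genes that overlap it held 0 to 5 counts in a library. CYCS has many processed copies in the genome, and the 42 annotated cytochrome c pseudogenes together held 4 to 129 counts in a library, 0.617% to 5.39% of the CYCS count, the highest share in mimic FT replicate 2. These are pairs that map to 1 place. Pairs that fit both CYCS and a copy are left out of the counts, and how many were lost was not tested.

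Libraries held 7772149 to 48544756 gene counts, the 2 control libraries holding the fewest. In read pairs the control libraries were the largest, with 100431185 in the FT and 162644207 in the AGO2-IP. Mimic libraries had 48404345 to 91866629 read pairs. Read pairs that named no gene made up at least 92.3% of each control library against 21.4% to 47.2% of the mimic libraries. The share of mitochondrially encoded genes among gene counts was 43.4% in the control FT and 3.48% in the control AGO2-IP, and it did not exceed 0.125% in any mimic library. The line's markers VIM, CD44, EGFR, CAV1 and AXL were present in all 6 libraries, at 59.0 CPM (the reads of a gene relative to all gene counts of its library) or more. ESR1, PGR, CDH1, PTPRC and HBB stayed at or below 3.96 CPM. ERBB2, at 37.7 to 172 CPM, EPCAM, at 2.80 to 11.8 CPM, COL1A1, at 4.63 to 44.1 CPM, and PECAM1, at 0.515 to 8.47 CPM, were not absent. CPM are relative to all gene counts of the same library, so they carry neither the amount of RNA pulled down nor the number of cells, and in such bulk samples fewer cells and less RNA per cell cannot be told apart.

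CYCS and APAF1 were the most abundant of the 7 genes in the mimic AGO2-IP once counts were scaled to exon length and to the gene counts of the library (FPKM). CYCS reached 21.6 ± 4.88 FPKM and APAF1 16.8 ± 1.71 FPKM (SD, n = 2). On this measure both libraries of each lay above both libraries of the gene ranked after it. Over unshared exon bases these top genes overlapped, since APAF1 in replicate 2, at 19.9 FPKM, lay above CYCS in replicate 1, at 18.1 FPKM. The exon length merges all annotated transcripts of a gene. It is 8020 bases for CASP2 against 4089 in its canonical transcript, and 7759 against 7201 for APAF1. Levels per base of canonical transcript were not computed, and the order of the genes may differ on them. CASP6 followed with 8.53 ± 1.79 FPKM, CASP2 with 7.42 ± 4.88 FPKM, and HTRA2 with 4.57 ± 3.34 FPKM (SD, n = 2), and CASP9 read 2.56 and 1.14 FPKM. Neighbours in that run of 4 overlapped. DIABLO came last at 0.206 ± 0.104 FPKM (SD, n = 2), or 0.413 and 0.195 FPKM over its unshared exon bases in the 2 libraries. In the mimic FT, CYCS again had the highest mean, 20.3 FPKM, but with an SD of 24.4 FPKM (n = 2) it overlapped the next gene. HTRA2 followed with 9.15 ± 1.79 FPKM, CASP6 with 9.09 ± 5.67 FPKM, CASP2 with 6.09 ± 1.59 FPKM and APAF1 with 5.84 ± 2.40 FPKM (SD, n = 2), each overlapping its neighbour. CASP9, at 3.10 ± 0.324 FPKM, and DIABLO, at 0.566 ± 0.194 FPKM (SD, n = 2), each lay apart at the bottom. Of the summed FPKM of the 7 genes, APAF1 made up at most 12.5% in a mimic FT library and at least 27.2% in a mimic AGO2-IP library.

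**Figure D1:**
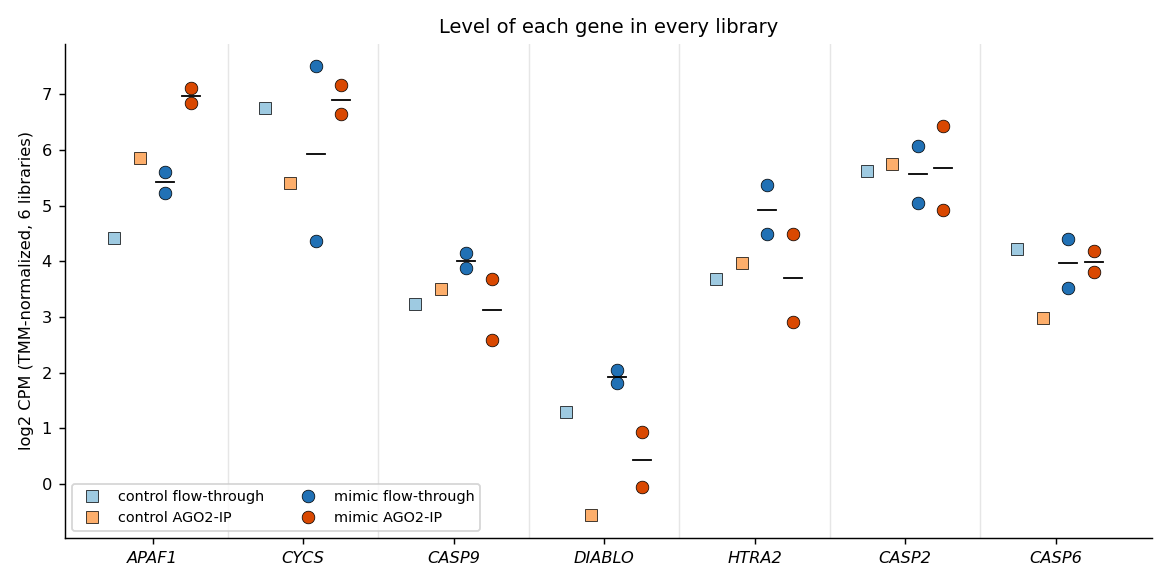
Level of each of the 7 genes in the 6 libraries, as log2 CPM after TMM scaling over the 6 libraries. Squares are the single control libraries, circles the 2 mimic replicates and bars the mimic means. Both APAF1 mimic AGO2-IP libraries, at 6.84 and 7.11, lie above both mimic FT libraries, at 5.60 and 5.23, while the CYCS mimic FT libraries lie at 7.50 and 4.36.

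Whether each transcript made up a larger share of the AGO2-IP than of the FT was asked by comparing the mimic libraries of both fractions. None of the 7 genes was called enriched or depleted at an absolute log2 fold change of at least 1 and an adjusted p of at most 0.05 (edgeR's quasi-likelihood test, Benjamini-Hochberg over 13078 genes). Over all tested genes 32 were called enriched (0.245%) and 54 depleted (0.413%). At an unadjusted p under 0.05, 1 of the 7 passed, APAF1, as did 3107 of all tested genes. PyDESeq2 called none of the 7 either, nor did edgeR with the replicate block, which pairs each AGO2-IP with the FT of the same replicate and called 601 genes enriched (4.60%) and 664 depleted (5.08%). The median log2 fold change of the 7 genes was -0.04, and that of all tested genes was -0.11. Fold changes of at least 1 on the log2 scale, without regard to the test, were seen for 1 of the 7 (APAF1; 20.0% of all tested genes) and of at most -1 for 2 of the 7 (DIABLO and HTRA2; 26.9%). In APAF1 alone both AGO2-IP libraries lay above both FT libraries, a position held by 28.1% of tested genes. In DIABLO, CASP9 and HTRA2 both AGO2-IP libraries lay below both FT libraries, as in 28.5% of tested genes, but HTRA2 did so by 0.01 at its closest pair and overlapped when the 6 libraries were scaled together.

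**Figure D2:**
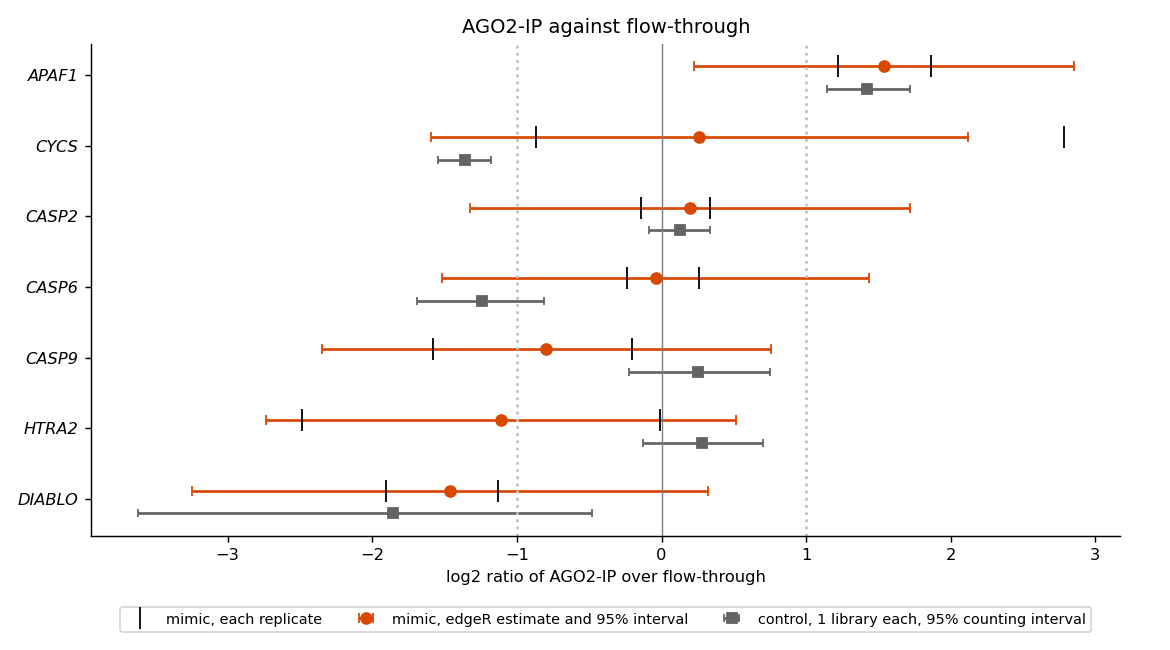
Log2 ratio of AGO2-IP over FT for the 7 genes. Circles with bars are edgeR estimates in the mimic libraries with 95% intervals, ticks the ratio within each replicate, and grey squares the single control pair with its 95% counting interval. The interval of APAF1, 0.23 to 2.85, stays above 0, and the CYCS replicates fall at -0.87 and 2.79.

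APAF1, the scaffold of the apoptosome, read 120.7 and 139.5 CPM in mimic AGO2-IP replicates 1 and 2, and 58.4 and 32.2 CPM in the matching FT libraries. The control AGO2-IP read 69.0 CPM and the control FT 16.1 CPM. AGO2-IP was thus above FT in both mimic replicates and in the control pair. The log2 fold change in the mimic libraries was 1.54 (SE 0.60, 95% interval 0.23 to 2.85, n = 2 against 2, edgeR adjusted p = 0.159). The difference within a replicate was 1.22 in replicate 1 and 1.86 in replicate 2. Over the 15 alternatives tried, the estimate ran from 0.86 to 1.90. In none of those that kept all 4 libraries did it meet both thresholds (edgeR or PyDESeq2 adjusted p from 0.0644 to 0.231). Without mimic FT replicate 1 the log2 fold change was 1.69. That fit has 1 FT library and takes its spread from the AGO2-IP libraries alone. With the trend of each library on the GC content of transcripts taken out, the estimate was 0.86 (edgeR adjusted p = 0.208). APAF1 transcripts are 41.8% GC, among the lowest of the 7.

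CYCS, which encodes cytochrome c, gave the widest spread of the group. Mimic FT replicate 1 held 10207 reads, or 217 CPM, and mimic FT replicate 2 held 854 reads, or 17.6 CPM. The mimic AGO2-IP libraries lay between them at 105 and 145 CPM, and the control libraries read 50.5 CPM in the AGO2-IP and 81.3 CPM in the FT. The direction thus depended on which FT library was used. Within replicate 1 the AGO2-IP was lower by a log2 difference of -0.87, and within replicate 2 it was higher by 2.79. The log2 fold change over both was 0.26 (SE 0.84, 95% interval -1.59 to 2.12, n = 2 against 2, edgeR adjusted p = 0.873) and 0.96 with the replicate block (edgeR adjusted p = 0.483). Without mimic FT replicate 1 it was 2.50, whereas without mimic FT replicate 2 it was -0.61. Each of these fits has 1 FT library and takes its spread from the AGO2-IP libraries alone. The difference between the FT libraries therefore does not enter their spread.

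CASP9, the initiator caspase activated on the apoptosome, was at a low level. Mimic replicates 1 and 2 read 13.5 and 6.02 CPM in the AGO2-IP and 17.6 and 15.1 CPM in the FT, beside 13.5 CPM in the control AGO2-IP and 7.08 CPM in the control FT. Both mimic AGO2-IP libraries lay below both mimic FT libraries, with a log2 difference of -0.20 within replicate 1 and -1.58 within replicate 2. The estimate over both was a log2 fold change of -0.80 (SE 0.71, 95% interval -2.35 to 0.76, n = 2 against 2, edgeR adjusted p = 0.507). It stayed below 0 under all 15 alternatives, from -1.46 to -0.37, and met the thresholds in none.

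CASP2, the initiator caspase of the PIDDosome, differed more between replicates than between fractions. It read 31.9 and 87.2 CPM in mimic AGO2-IP replicates 1 and 2 and 39.8 and 57.9 CPM in the mimic FT libraries. The control AGO2-IP, at 64.8 CPM, and the control FT, at 37.2 CPM, fell within that range. Replicate 2 was the higher in both fractions, by 1.51 on the log2 scale in the AGO2-IP and 1.03 in the FT, so that the difference between fractions within a replicate was -0.14 and 0.34. Over both replicates it was 0.20 (SE 0.69, 95% interval -1.32 to 1.72, n = 2 against 2, edgeR adjusted p = 0.885).

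CASP6, the executioner caspase of the group, likewise differed more between replicates than between fractions. On the log2 scale replicate 2 minus replicate 1 was -0.37 in the AGO2-IP and -0.87 in the FT. The difference between fractions within a replicate was -0.24 and 0.26. The mimic AGO2-IP libraries read 19.0 and 14.1 CPM and lay between the mimic FT libraries, at 25.4 and 9.87 CPM. In the control pair the AGO2-IP read 9.41 CPM and the FT 14.0 CPM. The log2 fold change in the mimic libraries was -0.04 (SE 0.67, 95% interval -1.52 to 1.43, n = 2 against 2, edgeR adjusted p = 0.974). That interval covers changes of more than 1 in either direction, so these 4 libraries do not exclude a change of that size.

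DIABLO and HTRA2, both antagonists of the inhibitor of apoptosis proteins, had the lowest fold changes of the group, and both are the genes whose reads are most affected by overlapping annotation. DIABLO held 91 and 35 reads in the AGO2-IP of mimic replicates 1 and 2 (1.95 and 0.921 CPM) and 230 and 145 reads in their FT (4.89 and 2.99 CPM). The control AGO2-IP held 6 reads and the control FT 14. AGO2-IP was the lower in both mimic replicates and in the control pair. The log2 fold change was -1.46 (SE 0.81, 95% interval -3.25 to 0.32, n = 2 against 2, edgeR adjusted p = 0.290). It stayed below 0 under the 14 alternatives that kept the gene, from -2.07 to -1.08. It met the thresholds under 1 of them, the replicate block with the GC trend removed (log2 fold change -1.57, edgeR adjusted p = 0.0357). There 12.7% of all genes were called depleted. The GC content used was that of the canonical transcript, all of which other genes share, whereas the counts come from unshared exon bases.

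HTRA2 read 23.6 and 7.52 CPM in mimic AGO2-IP replicates 1 and 2 and 26.9 and 35.5 CPM in the mimic FT libraries. The control AGO2-IP read 18.7 CPM and the control FT 9.65 CPM. The gap lay in replicate 2, with a log2 difference of -2.49, whereas replicate 1 gave -0.01. The log2 fold change was -1.11 (SE 0.74, 95% interval -2.73 to 0.51, n = 2 against 2, edgeR adjusted p = 0.371), and it shrank to -0.29 once the GC trend was removed. With a library left out it ran from -2.12 without mimic AGO2-IP replicate 1 to -0.57 without mimic AGO2-IP replicate 2. It was -1.53 without mimic FT replicate 1. HTRA2 has the highest transcript GC content of the 7, 57.9%. When each strand was counted separately, the strand columns of HTRA2 summed to 1.36 times its unstranded count over the 6 libraries, against at most 1.09 times for any of the other 6 genes. This ratio was 1.11 in mimic FT replicate 2 and 1.57 in mimic AGO2-IP replicate 2, the pair in which the gap lay, and 1.44 to 1.52 in the other 4 libraries. On the strand columns taken singly the fold change was -0.90 and -0.91.

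**Figure D3:**
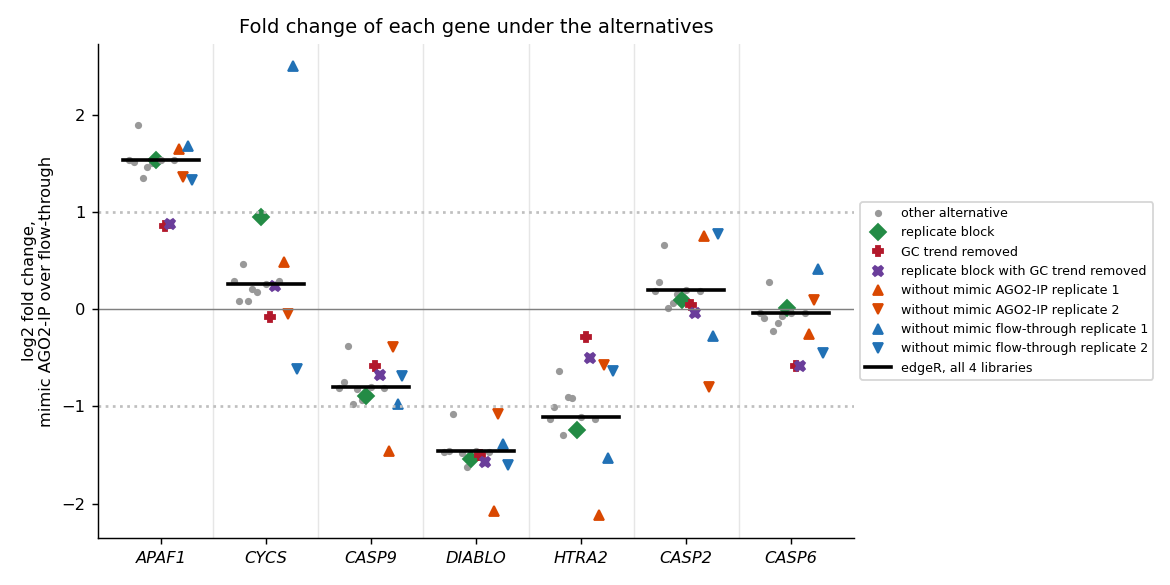
Log2 fold change of each gene, mimic AGO2-IP over FT, with all 4 mimic libraries (black line) and under the 15 alternatives (symbols; DIABLO has 14). Dotted lines mark a log2 fold change of 1 and -1. APAF1 stays between 0.86 and 1.90 and DIABLO between -2.07 and -1.08, while CYCS runs from -0.61 to 2.50.

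The differences between the 2 mimic libraries of each fraction were set beside the base composition of the transcripts. Over 13066 tested genes, the log2 difference of FT replicate 2 minus replicate 1 rose with transcript GC content (Spearman's rho 0.734 across genes, which are not independent replicates), and that of the AGO2-IP libraries did not (rho 0.0029). CYCS, the lowest of the 7 in GC at 41.2%, had an FT difference of -3.13, CASP6 (42.8% GC) one of -0.87 and APAF1 (41.8% GC) one of -0.37. DIABLO (49.3% GC) differed by -0.22, CASP9 (52.3% GC) by 0.28, HTRA2 by 0.90 and CASP2 (48.0% GC) by 1.03. The 1739 genes of 39% to 42% GC had a median FT difference of -1.07 with quartiles of -1.67 and -0.50, so CYCS lay outside the quartiles of its class on the low side. APAF1 lay outside them on the high side. CASP2 lay above the quartiles of the class of 48% to 51% GC, -0.56 and 0.64, and the other 4 genes lay within those of their classes. In the AGO2-IP libraries the order was another: CASP2 was higher in replicate 2 by 1.51, CYCS by 0.53 and APAF1 by 0.27, and CASP6 differed by -0.37, DIABLO by -0.99, CASP9 by -1.09 and HTRA2 by -1.58. The part of base composition in the fold changes of single genes was not tested beyond the GC alternative given beside them.

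**Figure D4:**
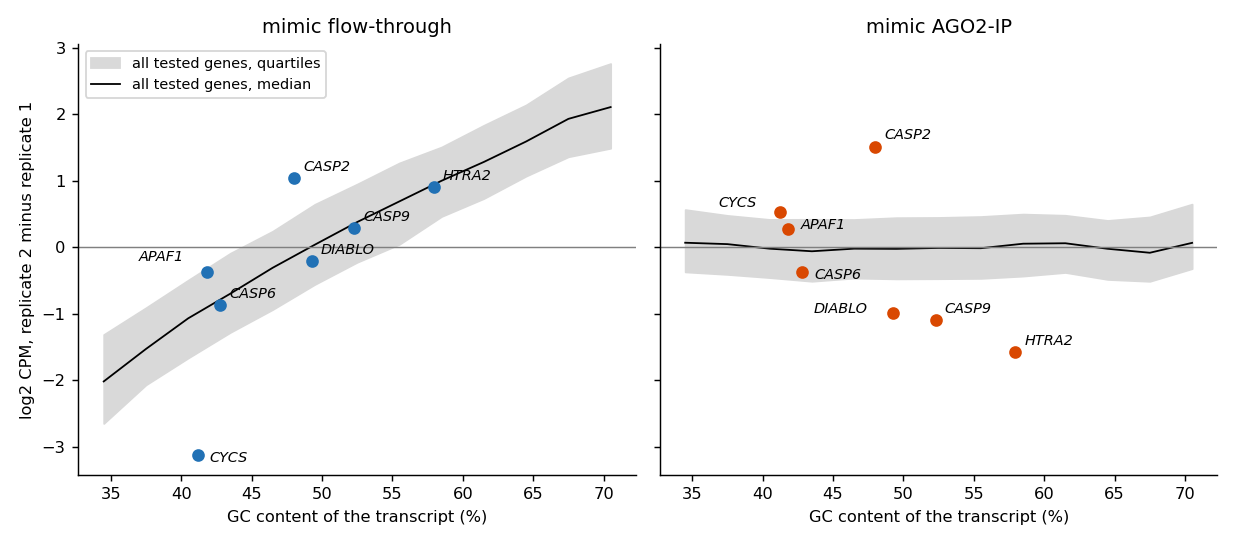
Log2 CPM of replicate 2 minus replicate 1 against transcript GC content in the mimic FT (left) and mimic AGO2-IP (right). Points are the 7 genes, the line the median and the band the quartiles of all tested genes in classes of 3 percentage points of GC. CYCS lies at -3.13 in the FT, below the band, and at 0.53 in the AGO2-IP.

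In control cells AGO2-IP was compared with FT in 1 library each, as the sample titles assign them, so ratios are given with counting intervals and without a test. TMM scaling over the 6 libraries put the median gene at a log2 ratio of 0.23, and library size alone put it at 0.90. APAF1 was again the highest of the 7, at 1.42 (95% counting interval 1.14 to 1.72). HTRA2 stood at 0.28 (-0.13 to 0.70), CASP9 at 0.26 (-0.22 to 0.75) and CASP2 at 0.13 (-0.08 to 0.34), close to the median gene. CASP6 stood at -1.24 (-1.69 to -0.81), CYCS at -1.36 (-1.54 to -1.18) and DIABLO at -1.86 (-3.62 to -0.48). Thus 1 of the 7 reached a log2 ratio of 1, as did 22.3% of the 8245 genes with at least 200 reads in the pair, and 3 reached -1, as did 13.7%. Of those 3 CYCS alone had 200 reads in the pair, and with library size alone 1 of the 3 remained past -1, DIABLO, at -1.21 from 20 reads. The intervals cover counting error only and leave out the spread between cultures.

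Mimic and control were also compared within each fraction, against the single control library and without a test. The control libraries differed from the mimic libraries in the share of read pairs mapped to several places, 73.7% and 76.7% against 2.38% to 19.2%, and in mitochondrial reads, and the part of these differences in the ratios was not tested. In the AGO2-IP, 4 of the 7 genes reached a log2 ratio of 1, against 19.4% of 11467 genes, and none reached -1, against 15.6%. The 4 were CYCS at 1.50 (1.24 and 1.77 for the 2 mimic libraries), APAF1 at 1.13 (0.99 and 1.26), CASP6 at 1.01 (0.83 and 1.20) and DIABLO at 1.002 (0.51 and 1.49), the last against 6 control reads. DIABLO, with 132 reads in the 3 libraries, is not among the 11467 genes, which hold at least 200. CASP2 stood at -0.08 (-0.83 and 0.67), HTRA2 at -0.27 (-1.06 and 0.52) and CASP9 at -0.36 (-0.91 and 0.18), and for each of these the 2 mimic libraries lay on opposite sides of the control. The count of 4 fell to 1 with library size alone (CYCS, 1.29) and to 1 with the GC trend removed (DIABLO, 1.06), where CYCS stood at 0.86 and APAF1 at 0.54.

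In the FT, 1 of the 7 reached a log2 ratio of 1, HTRA2 at 1.24 (0.80 and 1.68), against 11% of 12254 genes, and none reached -1, against 9.66%. APAF1 stood at 0.99 (0.80 and 1.18), so that it was higher in both mimic libraries than in the control in this fraction as in the AGO2-IP. CASP9 stood at 0.76 (0.63 and 0.90) and DIABLO at 0.64 (0.52 and 0.75). CASP2 stood at -0.07, CASP6 at -0.26 and CYCS at -0.83, and for these the 2 mimic libraries lay on opposite sides of the control, for CYCS at -2.40 and 0.74. With library size alone 4 of the 7 reached 1, since the median gene then stood at 0.52 in place of 0.08.

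Genes that act with the 7 were described from 4 lists, tested in the same mimic comparison. Calls are given for edgeR on all 4 mimic libraries, first without and then with the replicate block, and those of other alternatives are named as such. Of the 5 tested inhibitor of apoptosis genes none was called in either fit. All 5 had positive estimates, as did 47.0% of all tested genes, with a median of 1.08. With the GC trend removed 4 of the 5 were positive and the median was 0.54, XIAP, which blocks caspases directly, standing at -0.46. BIRC5, which encodes survivin, stood at 0.42 (SE 0.58, edgeR adjusted p = 0.682) and BIRC2, which encodes cIAP1, at 1.23 (SE 0.64, edgeR adjusted p = 0.264). BIRC2 moved to 1.997 without mimic FT replicate 1 and to 0.68 without mimic FT replicate 2. Without mimic FT replicate 1, 3 of the 5 were called enriched, BIRC2, BIRC3 and BIRC6, where 20.2% of all genes were. XIAP, BIRC3 and BIRC6 were named after their values were seen.

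Among the 8 tested mitochondrial genes, AIFM1 was called enriched in both fits. It encodes apoptosis-inducing factor, a flavoprotein that leaves mitochondria in dying cells and acts without caspases. AIFM1 had 19360 and 11293 reads in the AGO2-IP of replicates 1 and 2 and 1654 and 1465 in their FT, a log2 fold change of 3.40 (SE 0.64, edgeR adjusted p = 0.0464). The estimate ran from 3.16 to 3.82 over the 15 alternatives and was called in 9. It was not called with DESeq2 size factors, with library size alone or on either strand column. Nor was it called without mimic AGO2-IP replicate 1 or replicate 2. Its log2 ratio in the control pair was 2.49, from 927 and 99 reads. With the replicate block a further gene of this list was called, HCCS, the enzyme that attaches haem to cytochrome c, at 2.46 (edgeR adjusted p = 0.0234). HCCS ran from 1.82 to 2.80 over the alternatives and was called in 6. ENDOG, a mitochondrial nuclease, lay the other way at -2.41 (edgeR adjusted p = 0.169). It was called depleted in 2 alternatives, by PyDESeq2 (adjusted p = 0.0457) and by edgeR without mimic FT replicate 1, a fit with 1 FT library. HCCS and ENDOG were named after their values were seen.

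Of the 8 regulators of the apoptosome and PIDDosome, all tested, none was called by edgeR without the block. PTMA, whose product hinders apoptosome assembly, stood at -0.71 (SE 0.66, edgeR adjusted p = 0.528) and CSE1L at 0.90 (SE 0.74, edgeR adjusted p = 0.476). CSE1L moved to 2.25 without mimic FT replicate 1 and to 0.17 without mimic FT replicate 2. With the block ANP32A was called enriched at 2.31 (edgeR adjusted p = 0.0271). PyDESeq2, which was run without the block, called ANP32A enriched (adjusted p = 0.00609) and PIDD1, the scaffold of the PIDDosome, depleted (adjusted p = 0.0431), where edgeR gave PIDD1 -2.15 (adjusted p = 0.149).

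Of the 10 caspase substrates none was called by edgeR without the block. PARP1, a DNA repair enzyme cut early in apoptosis, stood at 1.81 (SE 0.60, edgeR adjusted p = 0.119) and was called in 4 of the 15 alternatives. LMNA, which encodes lamin A and C, stood at -0.32 (SE 0.72, edgeR adjusted p = 0.808). With the block DFFA, which encodes the inhibitor of the apoptotic DNase, was called depleted at -2.17 (edgeR adjusted p = 0.0449). PyDESeq2 called DFFA depleted (adjusted p = 0.00717) and PARP1 (adjusted p = 0.0331) and LMNB1 (adjusted p = 0.0307) enriched. LMNB1, which encodes lamin B1, stood at 1.84 in edgeR (adjusted p = 0.118). ANP32A, from 1.77 to 2.71, was called in 6 of the 15 alternatives, and DFFA, from -2.53 to -1.75, in 7. PIDD1 was called in 2 and LMNB1 in 4. These 4 genes were named after their values were seen. The lists' median log2 fold changes were 1.13 for the mitochondrial genes, 0.53 for the regulators and 0.81 for the substrates, beside -0.04 for the 7 genes and -0.11 for all tested genes. With the replicate block and the GC trend removed they were 0.50, -0.02 and 0.85, beside 0.51 for the inhibitor of apoptosis genes, -0.50 for the 7 genes and -0.03 for all tested genes.

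**Figure D5:**
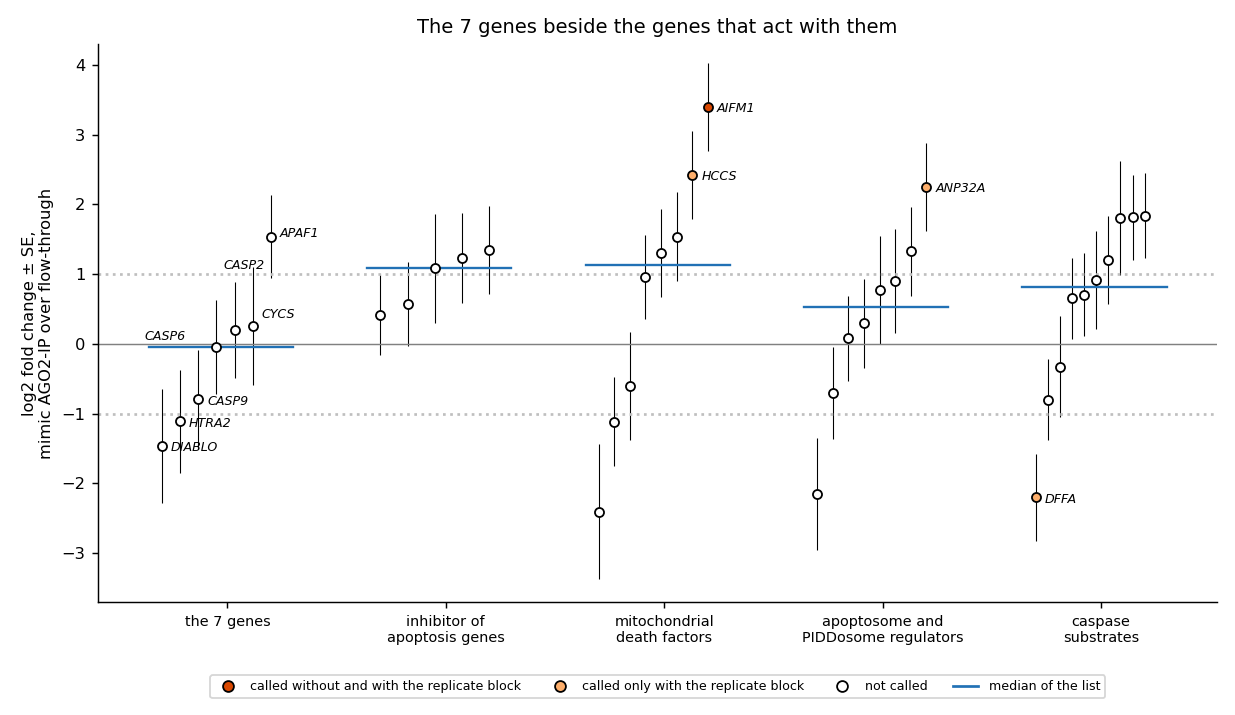
Log2 fold change with its SE, mimic AGO2-IP over FT, for the 7 genes and the tested genes of 4 lists. Fill marks calls by edgeR on all 4 libraries without and with the replicate block, not those of other alternatives, and blue lines are list medians, from -0.04 for the 7 genes to 1.13 for the mitochondrial genes. AIFM1, at 3.40, is the filled point called in both of these fits.

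The 7 genes did not share a profile. Profiles were compared as log2 CPM over the 6 libraries, centred on each gene's mean, and likeness was measured as the Euclidean distance, so that 0 means the same shape. The closest pair among the 7 was CASP9 and HTRA2, at 0.737, and the farthest was CYCS and HTRA2, at 4.07. APAF1 had no near neighbour in the group, with CASP2 the closest at 2.53, against a median of 2.66 to all 11747 protein-coding genes compared. The nearest protein-coding genes were TAF1 (0.263) and KIF1B (0.266) for APAF1, and FCHO2 (0.316) and RBM27 (0.357) for CYCS. For CASP9 they were GSTZ1 (0.235) and DCLK2 (0.331), for CASP2 HMOX2 (0.346) and HIPK2 (0.374), and for CASP6 ZNF528 (0.256) and FAM200A (0.259). For DIABLO they were DCAF16 (0.498) and NDUFA13 (0.555), and for HTRA2 AURKAIP1 (0.384) and DNAJC22 (0.473). The 6 libraries differ in depth and in their trend on GC content, and the part of either in these likenesses was not tested.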

How the data were processed

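Ago-RIP-seq libraries of MDA-MB-231 cells were grouped by GEO's labels. The authors trimmed paired-end reads with cutadapt 3.5 after FastQC 0.11.9, aligned them to GRCh38 with STAR 2.7.11b in 2-pass mode and deposited STAR's counts per gene, which are raw and hold pairs that map to 1 place and 1 gene. The release of their annotation is not given in the sources used here. The unstranded counts were used, since the strand columns were about even (49.0% to 55.1%). Rows that name no gene were left out. They held at least 92.3% of the read pairs of each control library and 21.4% to 47.2% of each mimic library. Names, positions and transcripts came from GENCODE release 44, which held 60463 of 60708 identifiers.

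The mimic fractions were compared with edgeR 4.0.16 (R 4.3.3), glmQLFit and glmQLFTest, after TMM, over genes with at least 200 reads in the 4 libraries. Genes were called at an absolute log2 fold change of at least 1 and a Benjamini-Hochberg adjusted p of at most 0.05. Replicate numbers pair the fractions by the labels. Across genes, how far a library lay from its group mean correlated between same-numbered libraries at r = 0.324, and the block is an alternative. The replicates are biological by the labels, and whether both fractions of a replicate came from a single lysate is not given in the sources used here. Comparisons with the single control libraries are log2 ratios of TMM-scaled CPM (prior count 2) without p-values. FPKM were computed from counts, the merged exon length of all annotated transcripts and gene counts. Counting intervals are exact binomial at 95% and cover counting error only. No molecular identifiers are named in the protocol, so PCR copies of a molecule count as separate reads and the intervals may be too narrow.

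Alternatives were DESeq2 1.42.0 size factors, library size alone and the replicate block. The count filter was also set to a sum of 1 read over the 4 libraries, or to 200 reads in each library. Further alternatives were columns 3 and 4, 1 fit of all 6 libraries, removal of each library's GC trend (lowess span 0.2) and PyDESeq2 0.5.4. The last were a prior count of 0.5, mitochondrially encoded genes left out, and each mimic library left out. A fit with a mimic library left out has 1 library in a fraction and takes its spread from the other fraction alone. Counts of alternatives that called a list gene include such fits. The edgeR step was tested on simulated data. The 7 genes and the lists were chosen with earlier results of these data known. A further list is not reported here. From the other lists, the text names genes called without the block, and otherwise the 2 with the highest summed count (others are marked as named afterwards), and for each of the 7 genes the 2 protein-coding genes nearest in profile.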

Additional observations from a re-analysis of the deposited data

Results flagged for a closer look

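CASP9 had ratios of opposite sign in the mimic and control pairs. In the mimic libraries both AGO2-IP libraries lay below both FT libraries (log2 fold change -0.80, edgeR adjusted p = 0.507), whereas in the control pair the AGO2-IP was higher (log2 ratio 0.26, from 109 and 55 reads). The difference was not tested, because the control has 1 library per fraction. The counting interval of the control ratio, -0.22 to 0.75, includes 0. That ratio lay close to the median gene, at 0.23, and was 0.035 with the GC trend removed. Of the 8225 genes with at least 200 reads in the mimic libraries and in the control pair, 958 (11.6%) showed such an opposition. CASP9, with 164 reads in the control pair, is below that minimum. Signs also differed for HTRA2, at -1.11 in the mimic libraries and 0.28 in the control pair, and for CYCS, at 0.26 and -1.36.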

How the results depend on the processing

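Among the alternatives that kept all 4 mimic libraries, a gene of the 7 was called only under the replicate block with the GC trend removed. Fits with a library left out take their spread from 1 fraction alone, so their calls for the 7 are not given here. Without mimic FT replicate 1 the log2 fold changes were 1.69 for APAF1 and 2.50 for CYCS. The replicate block with the GC trend removed called 1 depleted, DIABLO, and moved the median of the 7 from -0.04 to -0.50, and leaving out a library moved it to between -0.61 and -0.25. Signs turned for the genes near 0. CASP2 gave -0.036 under the replicate block with the GC trend removed and -0.79 to 0.78 with a library left out. CASP6 gave 0.28 without a count filter, 0.011 with the replicate block and -0.45 to 0.42 with a library left out. CYCS gave -0.083 with the GC trend removed and -0.61 to 2.50 with a library left out. Of the list genes, LMNA turned to 0.23 without a count filter, 1.04 with the GC trend removed, 1.03 with the replicate block as well and -1.07 to 1.04 with a library left out, and PTMA ran from -1.32 to 0.23 with a library left out. XIAP turned to -0.46 with the GC trend removed and -0.32 with the replicate block as well. In all, 8 of the 31 list genes turned sign under at least 1 alternative, and 18 were called in at least 1. The matching shares of all tested genes were not computed, so these counts do not set the list genes apart. The replicate block with the GC trend removed by itself called 1835 of 13078 genes enriched and 1658 depleted. Among the 7 genes the replicate block changed no other sign and no call. The cause of these shifts was not tested. DIABLO has no value under the filter of 200 reads in each library.

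Over all tested genes, calls moved with the model: 32 enriched and 54 depleted became 601 and 664 with the replicate block, 434 and 309 with the GC trend removed, 1835 and 1658 with both, 841 and 1077 by PyDESeq2, 2476 and 2527 without mimic FT replicate 1, 235 and 420 without mimic FT replicate 2, 13 and 22 without mimic AGO2-IP replicate 1 and 2 and 20 without mimic AGO2-IP replicate 2. They became 419 and 204 without a filter, 213 and 371 with 200 reads in each library, 13 and 33 with DESeq2 size factors, 9 and 35 with library size alone, 1 and 17 on column 3 and 2 and 12 on column 4, and 22 and 40 with all 6 libraries in 1 fit.

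In the control pair, 3 genes at a log2 ratio of -1 or less became 1 with library size alone. Between the 2 kinds of AGO2-IP, mimic over control, 4 genes at 1 or more became 1 with library size alone or the GC trend removed, 2 with DESeq2 size factors or column 3, and 2 to 3 with a mimic library left out, which also gave 0 to 1 genes at -1 or less. For mimic over control FT, 1 gene at 1 or more became 4 with library size alone and 2 on column 3, and leaving out a mimic library gave 0 to 1 at -1 or less. Depth was lowest for DIABLO, with 6 to 230 reads a library.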
